A study of Homo sapiens with 22 samples.

Results

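Insertions of the piggyBac self-reporting transposon were examined around 8 genes of blood stem cells and megakaryocytes, out of 20015 protein-coding genes. The members were 5 transcription factors, GATA2, RUNX1, FLI1, ERG and MEIS1, and 3 platelet genes, ITGA2B, ITGB3 and PF4. An insertion was assigned to a gene when it lay in the gene body of the GENCODE annotation on hg38 or within 50 kb either side of it, a stretch called the gene window here. The 8 windows held 137194 of 52121915 insertions (0.263%) at 16051 of 19214674 TTAA sites (0.0835%), and 73.3% of those insertions lay in the RUNX1 window. All libraries came from K562, an established human leukemia cell line with erythroid and megakaryocytic traits, into which 5 µg of a barcoded donor transposon carrying puromycin resistance and 5 µg of a helper plasmid encoding the transposase were electroporated. The helper was hyPBase (labelled WTHYPB) in 10 libraries and hyPBase-centrip (WTHYPBcentrip), a variant that the sources used here do not describe further, in the other 10, and 2 more libraries whose labels name different helpers were not used. Cells of both groups grew under 2 µg/ml puromycin for 11 days, and RNA was taken from 3 transfections together, so the spread between libraries measured here is that between such pools of a single line. A transfection with the donor alone served as the control of selection and was not analysed here, so no background without a helper stands beside these values.

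In calling cards the transposase leaves a transposon at TTAA wherever it inserts, and the transposon's own transcript reports the position. A transposase without a fused factor tends to insert at active enhancers, so dense insertions are usually read as a record of enhancer use. GATA2 and RUNX1 are needed to form and maintain blood stem cells, FLI1 and ERG are related ETS factors of stem cells, megakaryocytes and endothelium, and MEIS1 is a homeodomain partner of HOX proteins. ITGA2B and ITGB3 encode the 2 chains of the platelet fibrinogen receptor, and PF4 is a chemokine stored in platelet granules.

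Libraries held 1509672 to 2911515 insertions with hyPBase and 1638175 to 3596762 with hyPBase-centrip, at 3.01 to 5.39 and 2.23 to 3.89 reads per insertion. In each of the 8 windows reads per insertion were lower on average with hyPBase-centrip, as in GATA2 (5.36 ± 1.70 against 3.92 ± 0.94, SD over the 10 libraries of each helper), and the part of this in the helper comparisons was not tested. Every insertion on chromosomes 1 to 22, X and Y lay on TTAA. Every listed insertion was a distinct combination of site, orientation and donor barcode, and the most at 1 site in 1 orientation was 21 or 22 in every library. The strongest sites lay close to that limit: 5.95% of the GATA2 window's insertions and 4.66% of those of RUNX1 lay where at least 15 were seen at a site in 1 orientation of 1 library. The share of TTAA sites with no insertion in any library ran from 18.3% in the GATA2 window to 52.0% in the FLI1 window. The files hold no expression values, so the cell type was looked at only as insertion density: the windows of the erythroid genes HBG1, HBE1 and GATA1 had log2 density ratios of 3.02, 1.90 and 1.26, against 0.50 for KLF1 and 0.41 for TFRC. The HBG1 and HBE1 windows overlap, so their ratios share insertions. Among lymphoid and leukocyte genes the ratio was -0.56 for CD3E, 0.53 for CD79A and 1.81 for PTPRC.

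The site with the most insertions in each window is shown first, with the 20 bases on either side of it, because the densities below are counts at such sites. Each sequence is the hg38 reference read along the strand of its gene. Capitals mark only the TTAA whose insertions are given, and the ITGB3 and PF4 stretches each hold 1 more, in lower case.
GATA2, chr3:128483452-128483495: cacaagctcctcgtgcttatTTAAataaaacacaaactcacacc
RUNX1, chr21:34908037-34908080: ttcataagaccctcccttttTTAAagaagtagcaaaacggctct
FLI1, chr11:128813590-128813633: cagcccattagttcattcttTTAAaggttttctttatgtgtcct
ERG, chr21:38625149-38625192: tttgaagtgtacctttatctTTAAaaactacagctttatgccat
MEIS1, chr2:66429265-66429308: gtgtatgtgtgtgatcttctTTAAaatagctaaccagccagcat
ITGA2B, chr17:44326871-44326914: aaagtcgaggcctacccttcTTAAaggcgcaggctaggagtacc
ITGB3, chr17:47265978-47266021: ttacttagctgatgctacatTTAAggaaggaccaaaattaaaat
PF4, chr4:73979082-73979125: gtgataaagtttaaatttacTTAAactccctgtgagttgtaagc
The RUNX1 site, in an intron, took 781 insertions over the 20 libraries and from 37 to 42 in each of them. With at most 22 per orientation in any library, both orientations were near the limit there, so neither the narrow range nor the split between orientations can be read as a measurement of that site. The PF4 site, downstream of the gene, took 447 insertions, with 13 to 28 per library. The intronic GATA2 site took 377, with 12 to 27 per library. The MEIS1 site upstream of the gene had 299, the intronic ITGB3 site 237, the ITGA2B site, outside the gene, 91 and the intronic ERG site 87. In the FLI1 window no site had more than 18, and that site was hit in only 9 of the 20 libraries.

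Density was measured as insertions per TTAA site and compared with the 500 kb on each side of the window, 1 Mb in all. GATA2, RUNX1, FLI1, MEIS1 and ITGB3 were above their surroundings in all 20 libraries, ERG was below in all 20, and ITGA2B and PF4 lay near their surroundings. Being above in all 20 libraries was common, as 38.6% of 19953 protein-coding genes were, and 36.5% were below in all 20. The median log2 ratio of all genes was 0.02, and 90% of them lay between -1.69 and 1.61, so every member fell inside that range.

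**Figure D1:**
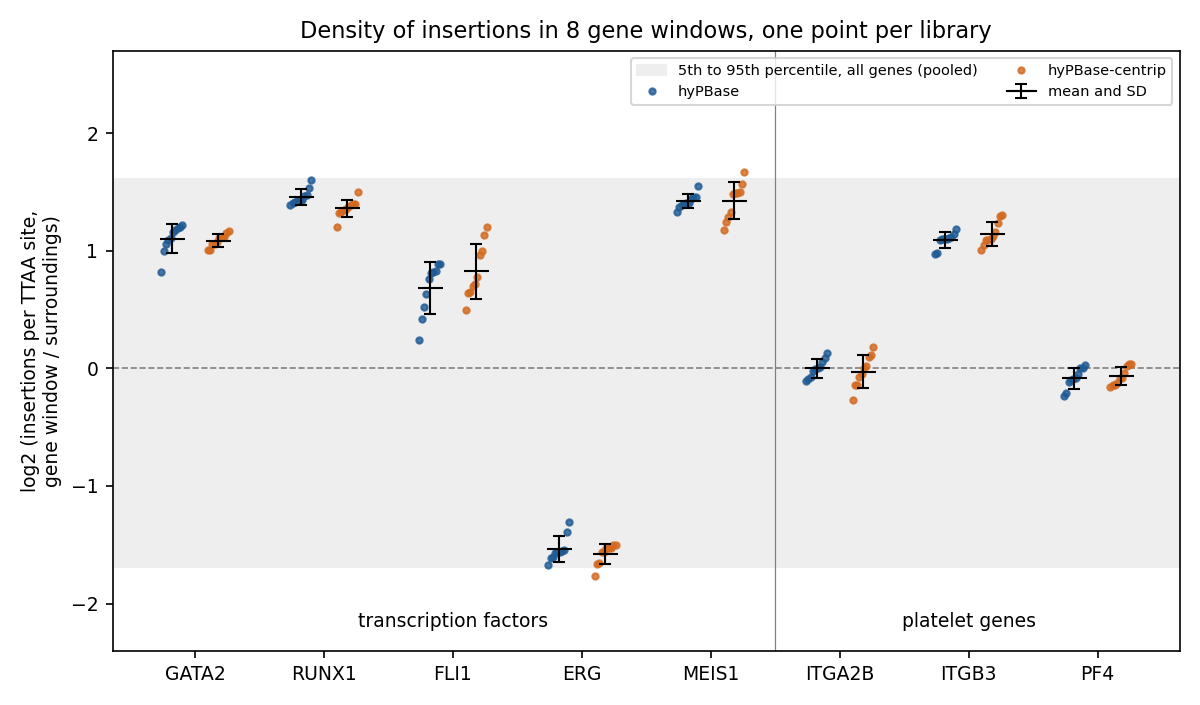
Log2 of insertions per TTAA site in each gene window over its surroundings, by gene (x axis), with 1 point per library, black bars for the mean and SD of 10 libraries, and a grey band for the 5th to 95th percentile of all genes. ERG lies near -1.55 in every library while MEIS1 and RUNX1 lie at 1.18 or higher, and the points of both helpers overlap for each gene.

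RUNX1 (chr21:34787801-36004667, minus strand) had the most insertions per site of the members, 12.1 per TTAA site over the 20 libraries against 4.59 in its surroundings. With hyPBase its window took between 3097 and 5491 insertions per library (median 4846), and with hyPBase-centrip between 3299 and 6689 (median 5264.5). Under hyPBase the log2 density ratio was 1.46 ± 0.07 (SD, n = 10), under hyPBase-centrip it was 1.36 ± 0.07 (SD, n = 10), and the pooled value of 1.40 was higher than that of 92.4% of genes. Counting each TTAA site once per library brought the mean RUNX1 ratio from 1.41 to 0.86, and collapsing barcodes brought it to 1.03. The annotated record spans 1216867 bp, far beyond the canonical transcript of 261502 bp. The canonical body alone held 28.1 insertions per TTAA site, 6.12-fold its surroundings, and the rest of the record 8.89 per site, 1.94-fold. The 50 kb upstream of the record, at 0.86-fold, were above the surroundings in only 3 of 20 libraries.

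GATA2 (chr3:128479427-128493201, minus strand) had 10.8 insertions per TTAA site against 5.08 around it. Its window took 107 to 214 insertions per library with hyPBase (median 185) and 120 to 255 with hyPBase-centrip (median 205.5). The log2 ratio was 1.10 ± 0.12 and 1.09 ± 0.06 (SD over the 10 libraries of each helper), higher than in 86.8% of genes when pooled. The gene body held 1460 of the window's 3783 insertions, at 38 TTAA sites, which gave a density 7.56-fold that of the surroundings, compared with 1.35-fold in the 50 kb upstream and 1.73-fold in the 50 kb downstream. Its introns reached 9.10-fold and its exons 2.60-fold.

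MEIS1 (chr2:66433452-66573869, plus strand) had a pooled ratio of 1.43, the highest of the members for whole gene records with 50 kb flanks and both helpers pooled, but from a low base. It held 3.68 insertions per TTAA site in surroundings of 1.37, when the genome as a whole had 2.71. Per library the window took 182 to 401 insertions with hyPBase (median 329) and 186 to 483 with hyPBase-centrip (median 365.5), and the log2 ratio was 1.42 ± 0.06 and 1.43 ± 0.16 (SD over the 10 libraries of each helper). The kilobase on each side of the canonical start was 14.5-fold over the surroundings, and all 20 libraries were above there. The ratio of the window depended on what it was set against, falling to 0.58 with 1 Mb of surroundings on each side and to 0.97 with 100 kb flanks.

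FLI1 (chr11:128686535-128813267, plus strand) was denser than its surroundings and yet sparse. Its 1.36 insertions per TTAA site were 0.50 of the genome mean, in surroundings of 0.81 per site, and by absolute density it was above only 13.04% of genes. Single libraries gave 43 to 96 insertions with hyPBase (median 78.5) and 53 to 105 with hyPBase-centrip (median 86). The log2 ratio varied more than for any other member, 0.68 ± 0.22 in hyPBase libraries and 0.83 ± 0.23 in hyPBase-centrip libraries (SD over the 10 libraries of each helper), and the lowest library was at 0.24.

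ERG (chr21:38380027-38661780, minus strand) was the reverse case. Its 2.51 insertions per TTAA site were 0.93 of the genome mean, but the surroundings had 7.35 per site, so the log2 ratio was -1.54 ± 0.11 in hyPBase libraries and -1.58 ± 0.09 in hyPBase-centrip libraries (SD over the 10 libraries of each helper). Counting each TTAA site once per library brought its mean from -1.56 to -0.92. Libraries had 160 to 336 insertions with hyPBase (median 286.5) and 176 to 427 with hyPBase-centrip (median 312). Every part measured was low: the gene body at 0.34-fold, the 50 kb upstream at 0.44-fold, the 50 kb downstream at 0.29-fold and the exons at 0.49-fold.

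Among the platelet genes, ITGB3 (chr17:47253827-47313743, plus strand) stood apart from the other 2, with 8.90 insertions per TTAA site against 4.08 around it. Its window took 200 to 426 insertions with hyPBase (median 351.5) and 232 to 530 with hyPBase-centrip (median 400.5), and the log2 ratio was 1.09 ± 0.07 and 1.15 ± 0.10 (SD over the 10 libraries of each helper). The excess was largest upstream, at 3.60-fold, a region that takes in MYL4, and was 2.32-fold in the gene body and 1.19-fold downstream. The gene ENSG00000259753 overlaps the body on the same strand, so insertions there belong to both annotations.

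ITGA2B (chr17:44372180-44389649, minus strand) had 5.37 insertions per TTAA site against 5.41 around it, and 10 of 20 libraries were above their surroundings. The window took 69 to 148 insertions with hyPBase (median 115) and 78 to 181 with hyPBase-centrip (median 120.5), for a log2 ratio of -0.00 ± 0.08 and -0.03 ± 0.14 (SD over the 10 libraries of each helper). Only 81 of the 2409 insertions lay in the gene body, at 28 TTAA sites and 0.53-fold the surroundings, and no library was above 1 there. SLC25A39, GRN, FAM171A2 and part of GPATCH8 share the window.

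PF4 (chr4:73980811-73982027, minus strand) is 1217 bp long, with 6 TTAA sites and 78 insertions in the body, so its window is mostly flank and holds the related chemokine genes PPBP and CXCL5. The window was among the densest in absolute terms, with 11.2 insertions per TTAA site, above 93.2% of genes, but its surroundings had 11.7. Libraries took 260 to 495 insertions with hyPBase (median 443.5) and 242 to 576 with hyPBase-centrip (median 454.5), and the log2 ratio was -0.08 ± 0.09 and -0.07 ± 0.08 (SD over the 10 libraries of each helper). The upstream flank was at 1.20-fold and above the surroundings in all 20 libraries, and the downstream flank was at 0.63-fold with no library above.

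In absolute density per site the order was RUNX1, PF4, GATA2, ITGB3, ITGA2B, MEIS1, ERG and FLI1, from 4.47 to 0.50 times the genome mean. Against the surroundings it was MEIS1, RUNX1, ITGB3, GATA2, FLI1, ITGA2B, PF4 and ERG. In that second order MEIS1 and RUNX1, ITGB3 and GATA2, and ITGA2B and PF4 were neighbours whose means differed, with either helper, by less than the larger SD of the pair. This order changed with the regions compared. With 1 Mb of surroundings on each side RUNX1 (1.18) and GATA2 (1.14) came first, before ITGB3 (0.81), FLI1 (0.77), MEIS1 (0.58) and PF4 (0.48). With 100 kb flanks GATA2 (2.02) and RUNX1 (1.59) came first, before PF4 (1.07), ITGB3 (0.97) and MEIS1 (0.97). With 250 kb of surroundings on each side MEIS1 (1.34) and ITGB3 (1.29) came first, before RUNX1 (1.07), GATA2 (0.58) and FLI1 (0.55). ERG was the lowest in each of these. It changed with the counting too, since with each TTAA site counted once per library ITGB3 (0.70) lay below GATA2 (0.82) and FLI1 (0.75), and with barcodes collapsed it lay below GATA2 (0.82 against 0.90). With gene bodies alone GATA2 (2.82) came first, and with canonical transcripts in place of gene records RUNX1 did (2.35).

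To compare transcription factors with platelet genes, the median log2 ratio of each set was taken in each library. The factors' median was 1.10 ± 0.10 and the platelet genes' 0.00 ± 0.09 (SD, n = 20), a difference of 1.10 ± 0.15 that was positive in all 20 libraries and ran from 0.79 to 1.34. Each median is the value of a single gene, GATA2 in 18 and FLI1 in 2 of the 20 libraries for the factors, and ITGA2B in 13 and PF4 in 7 for the platelet genes, so the difference and its SD rest on those genes. The hyPBase libraries gave 1.10 ± 0.17 and the hyPBase-centrip libraries 1.10 ± 0.12 (SD over the 10 libraries of each helper). The sets still overlapped gene by gene, since ITGB3 lay above GATA2, FLI1 and ERG in the pooled ratio, and ERG lay below all 3 platelet genes. The difference depended on how far the window and its surroundings reached. It fell to 0.03 with 100 kb either side, where PF4 rose to 1.07, and to 0.32 with 1 Mb of surroundings on each side. The counting moved it too, to 0.67 with each TTAA site counted once per library and to 0.77 with barcodes collapsed. No p is given, as the members were chosen.

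Dense stretches were sought as 1 kb bins, moved in steps of 500 bp, with at least 3 TTAA sites and at least 3 times the density of the surroundings with each helper on its own, merged where they met. Over the windows of all protein-coding genes 6.19% of bins were dense, and the median gene had 4.60% of its bins dense. The share was 21.0% in the MEIS1 window, 19.7% in RUNX1, 19.5% in ITGB3, 15.7% in GATA2 and 9.92% in FLI1, but 5.56% in PF4, 5.51% in ITGA2B and 0% in ERG. The 198 stretches numbered 111 in RUNX1, 27 in MEIS1, 22 in FLI1, 20 in ITGB3, 10 in GATA2, 4 in ITGA2B and 4 in PF4.

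**Figure D2:**
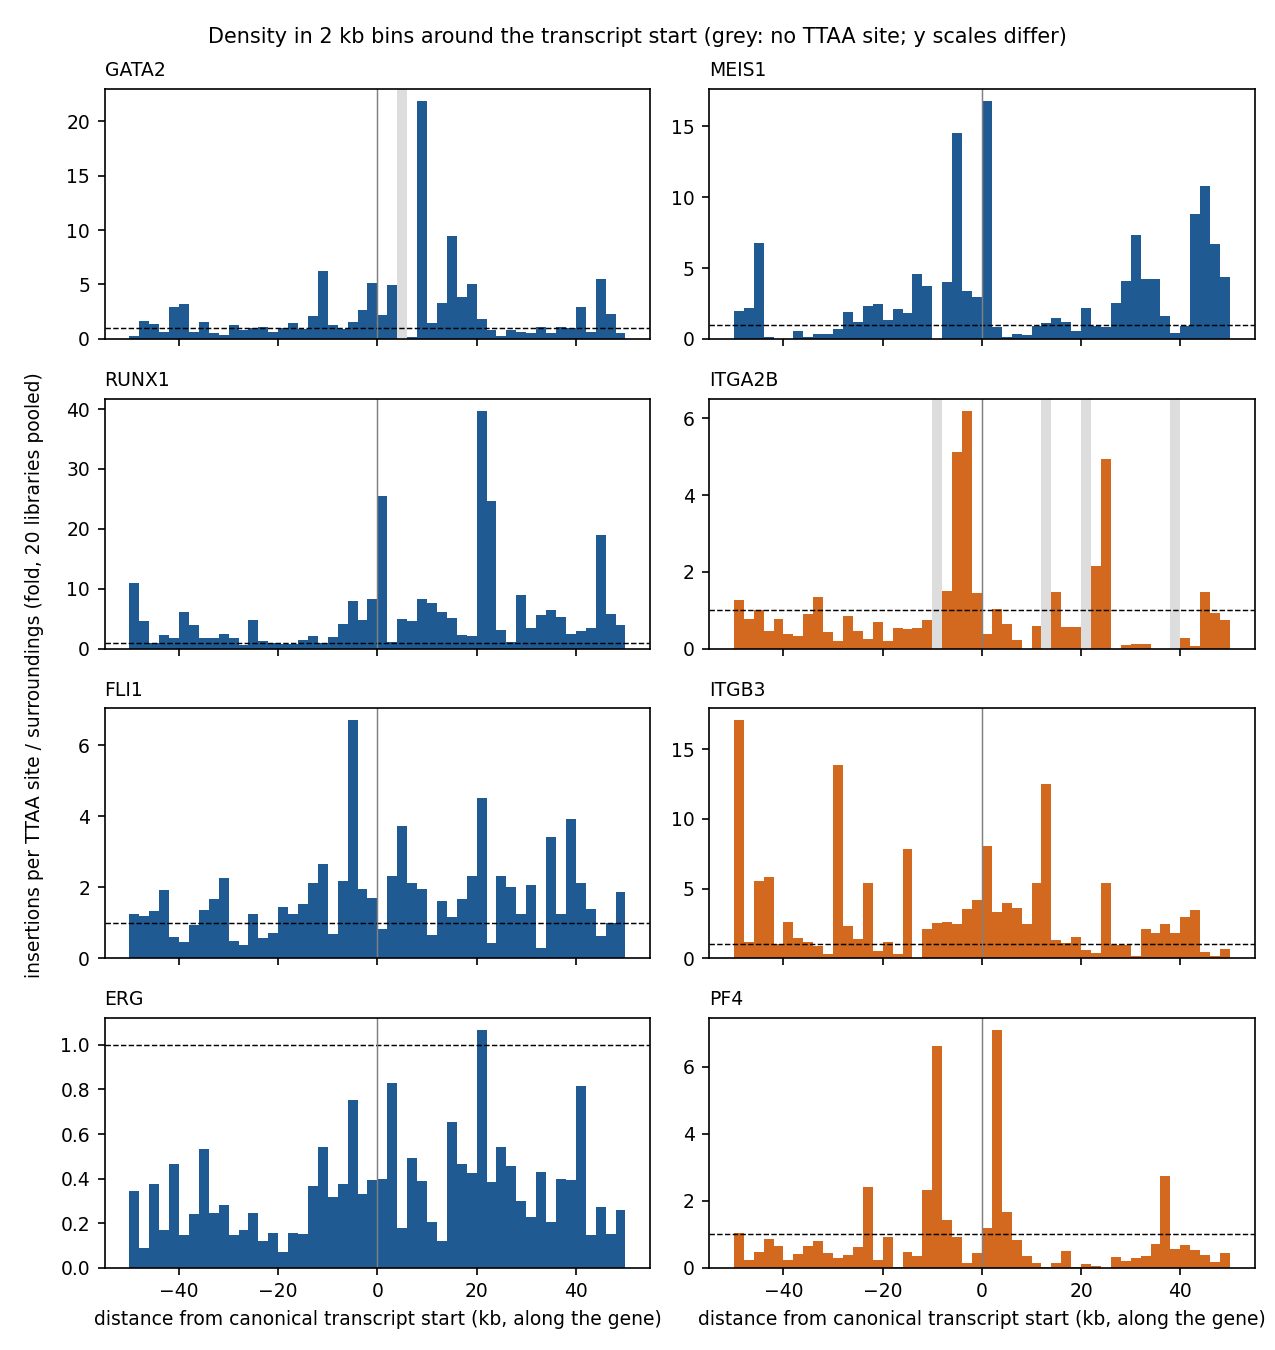
Insertions per TTAA site over the surroundings (fold, y axis, own scale per panel) in 2 kb bins by distance from the start of the canonical transcript (x axis, kb), 20 libraries pooled; transcription factors in blue, platelet genes in orange, and grey bands where no TTAA site exists. RUNX1 and MEIS1 rise at the start itself, GATA2 inside the gene, and no ERG bin exceeds 1.07-fold.

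In GATA2 a single stretch, chr3:128482501-128485000, held 1132 insertions at 13 TTAA sites, 29.9% of the window's total. It lay with its middle 9451 bp into the gene, mostly in an intron, and a GATA2 enhancer used in blood stem cells is known in such an intron. With hyPBase it took 36 to 70 insertions per library (median 62), 19.1-fold over the surroundings, and with hyPBase-centrip 31 to 72 (median 54), 15.5-fold. The 300 bases around its strongest site, chr3:128483324-128483623 on the minus strand, are shown because 3 TTAA sites there, in capitals, took 889 insertions.
GATA2 intron: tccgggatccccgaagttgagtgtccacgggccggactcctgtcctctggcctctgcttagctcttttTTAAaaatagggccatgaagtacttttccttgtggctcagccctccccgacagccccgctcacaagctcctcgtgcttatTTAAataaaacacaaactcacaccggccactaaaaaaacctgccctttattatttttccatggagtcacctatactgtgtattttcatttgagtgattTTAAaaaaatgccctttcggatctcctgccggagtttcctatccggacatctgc

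RUNX1 is transcribed from a distal and a proximal promoter, with a long intron between them that is known to carry an enhancer of blood stem cells. The stretch with the most insertions, chr21:34900001-34912000, had 10320 at 90 TTAA sites, 10.3% of the window, at 26.8-fold with hyPBase and 23.5-fold with hyPBase-centrip. Its counts per library were 379 to 588 (median 502.5) and 395 to 619 (median 542). It lay 143302 bp downstream of the canonical start. A second stretch, chr21:35024501-35030000, was 22052 bp downstream of that start and held 4382 insertions at 37 sites, 27.9-fold and 24.1-fold, with 152 to 256 insertions per library with hyPBase and 147 to 298 with hyPBase-centrip. The canonical start itself lay in the stretch chr21:35046501-35054500, with 2925 insertions at 13.6-fold. The densest stretch of all members, chr21:34967001-34968500, was also in RUNX1 and reached 31.3-fold from 861 insertions at 6 sites. Of the 111 stretches, 37 touched the canonical transcript and held 38651 insertions.

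In MEIS1 the stretch with the most insertions, chr2:66487001-66493500, lay 55125 bp into the gene and held 774, 11.9-fold with hyPBase and 10.0-fold with hyPBase-centrip. The densest, chr2:66434501-66437500, held the canonical start and 502 insertions, with 11 to 46 per library with hyPBase (median 26) and 12 to 31 with hyPBase-centrip (median 24), at 18.1-fold and 14.1-fold. Another, chr2:66427501-66432500, lay upstream over the antisense gene MEIS1-AS3 and held 662. The 250 bases before a transcript start were set beside those of ERG because TTAA is the one letter string the transposase needs. RefSeq (GRCh38.p14) gave 9 starts for GATA2, RUNX1, ERG, MEIS1 and ITGA2B. At 5 of them the 250 bases held no TTAA and could not be measured, among them both GATA2 starts and the RUNX1 start listed, and 43.3% of 35116 starts in the table held one. The MEIS1 start (chr2:66434875-66435124, plus strand) has 1 TTAA, which took 20 insertions from 11 libraries. The ERG start at chr21:38584946-38585195 (minus strand) has 6 TTAA and took 0, a count that allows up to 3. The other ERG starts with TTAA, chr21:38498478-38498727 and chr21:38498505-38498754, overlap each other, and each has 2 TTAA that took 3 insertions from 3 libraries. The MEIS1 start and the ERG start with 6 TTAA are printed along the strand of the gene, with TTAA in capitals.
MEIS1: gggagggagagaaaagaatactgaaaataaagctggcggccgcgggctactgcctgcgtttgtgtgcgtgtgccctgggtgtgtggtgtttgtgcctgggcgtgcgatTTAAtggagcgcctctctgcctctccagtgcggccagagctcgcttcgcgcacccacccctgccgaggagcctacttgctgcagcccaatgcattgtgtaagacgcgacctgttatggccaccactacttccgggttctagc
ERG: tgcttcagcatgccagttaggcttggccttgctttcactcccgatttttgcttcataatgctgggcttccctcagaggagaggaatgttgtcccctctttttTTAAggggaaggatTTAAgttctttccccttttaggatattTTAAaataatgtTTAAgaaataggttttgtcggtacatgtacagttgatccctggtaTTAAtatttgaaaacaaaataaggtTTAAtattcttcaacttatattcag

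ITGB3 stretches were spread on both sides of its start. The stretch with the most insertions, chr17:47263001-47268500, lay 11923 bp into the gene and held 714, while the densest, chr17:47204001-47205500, lay at the far upstream edge of the window inside MYL4 with 558 insertions at 17.1-fold. Between them chr17:47225001-47227000 held 586, with 18 to 29 per library with hyPBase (median 24) and 26 to 47 with hyPBase-centrip (median 34). In PF4 a stretch between PPBP and CXCL5, chr4:73990001-73992500, held 2775 insertions at 38 sites, 31.9% of the window, and another beyond the gene's end, chr4:73978501-73980000, held 660. ITGA2B had none in its body, and its strongest, chr17:44394001-44395500, lay 5101 bp upstream with 241 insertions and reached into GPATCH8. The 22 FLI1 stretches rested on 8 to 57 insertions each over 20 libraries.

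**Figure D3:**
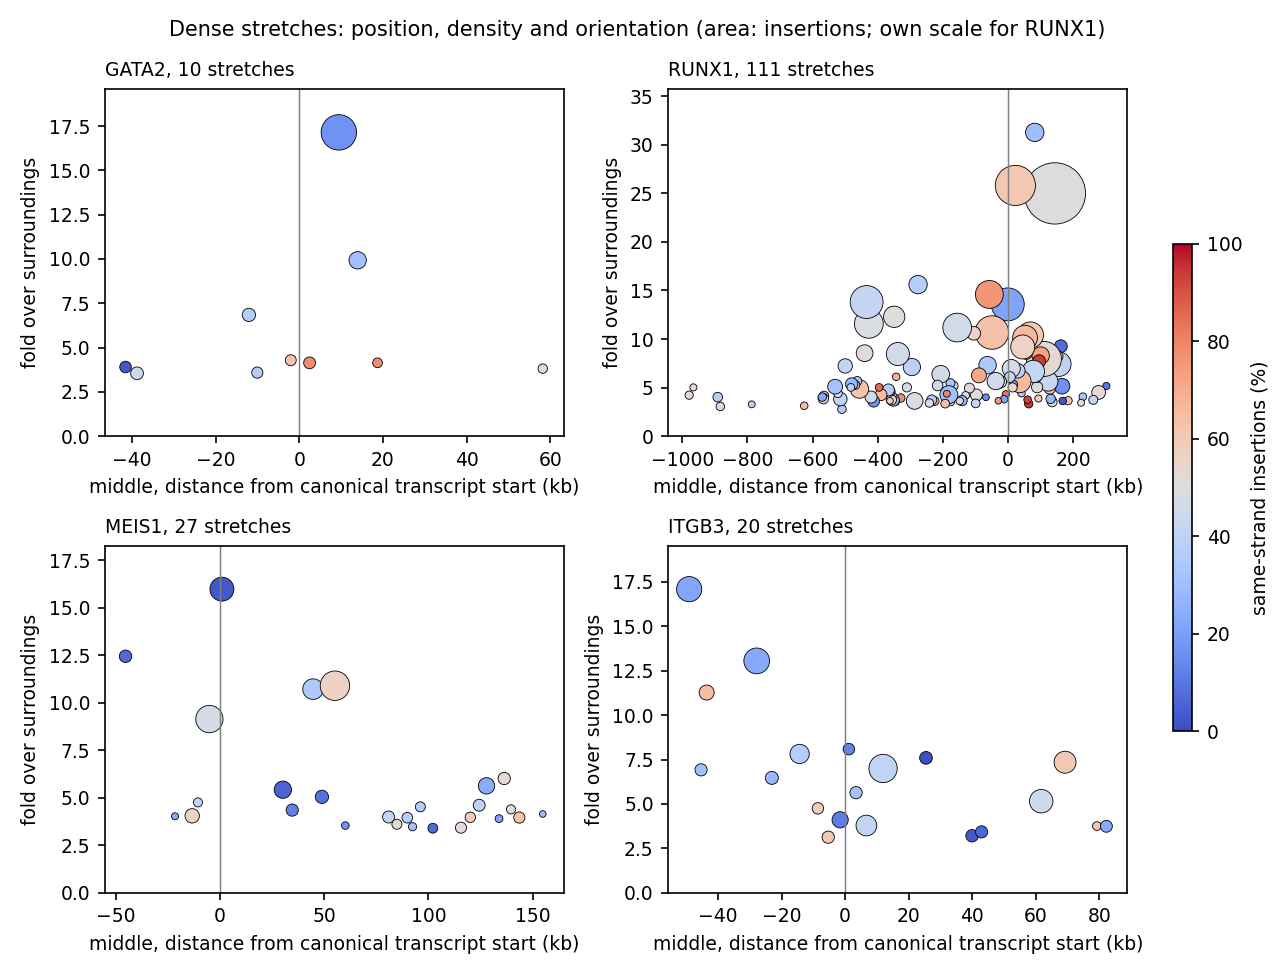
Each circle is a dense stretch of GATA2, RUNX1, MEIS1 or ITGB3, placed by the distance of its middle from the canonical start (x axis, kb) and its fold over the surroundings (y axis), with area for insertions and colour for the percent in the orientation of the gene. The densest GATA2 stretch lies near 9 kb at 17.1-fold, and MEIS1's near its start at 16.0-fold, both blue for few same-strand insertions.

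Orientation was scored as the share of gene-body insertions that point along the gene. Across 12712 genes with at least 200 insertions the median was 32.5%, so most genes held more insertions against their own direction. GATA2, MEIS1 and ITGB3 were close to that median, while RUNX1, FLI1 and ERG were near 50% over the whole body. The share was 27.7 ± 4.50% and 25.2 ± 5.75% in GATA2 with hyPBase and hyPBase-centrip (SD over the 10 libraries of each helper). Across libraries it ran from 15.4% to 35.4%, never reaching 50%. In MEIS1 it was 30.8 ± 3.25% and 31.3 ± 3.44%, and in ITGB3 26.3 ± 5.34% and 27.5 ± 3.07%, again below 50% in 20 of 20 libraries each.

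RUNX1 had 48.4 ± 0.71% with hyPBase and 49.3 ± 0.66% with hyPBase-centrip, and 18 of 20 libraries were below 50%. It was above 87.2% of genes. Inside the canonical transcript the share was 50.1% (95% Wilson interval 49.7 to 50.6%), and in the rest of the record 48.0% (47.6 to 48.4%). ERG was at 48.6 ± 4.32% and 48.6 ± 4.24%, and FLI1 at 48.6 ± 7.93% and 43.97 ± 6.91%. The ERG value joined parts on opposite sides of 50%, with 43.8% (interval 41.7 to 46.0%) inside the canonical transcript and 53.2% (51.1 to 55.3%) outside it. The part outside takes in the strongest ERG site, with 87 insertions at 79.3% same-strand, and the share without that site was not computed. At sites with up to 20 insertions over the libraries and at sites with more, the share was 48.4% and 49.1% in RUNX1, 47.8% and 56.1% in ERG, 37.7% and 26.0% in GATA2, 30.4% and 31.6% in MEIS1, and 21.4% and 30.3% in ITGB3. The bodies of ITGA2B (30 of 81 insertions, 37.0%, 95% Wilson interval 27.3 to 47.9%) and PF4 (34 of 78, 43.6%, 33.1 to 54.6%) held too few for the fit, and these intervals cover counting error only.

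In an edgeR quasi-likelihood fit with library as a block, 82.9% of 12865 genes were called below 50% and 6.91% above it after Benjamini-Hochberg adjustment. GATA2, RUNX1, MEIS1 and ITGB3 were 4 of 6 tested members called below, and none was called above. With at least 2 reads per insertion FLI1 was called too (adjusted p = 0.0264), making 5 of 6. The log2 odds were -1.46 ± 0.06 (SE) in ITGB3, -1.42 ± 0.08 in GATA2, -1.17 ± 0.04 in MEIS1 and -0.07 ± 0.01 in RUNX1, with edgeR adjusted p values of 4.6e-97, 1.6e-61, 7.5e-120 and 1.1e-11. FLI1 at -0.15 ± 0.09 (adjusted p = 0.111) and ERG at -0.07 ± 0.04 (adjusted p = 0.105) were not called.

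**Figure D4:**
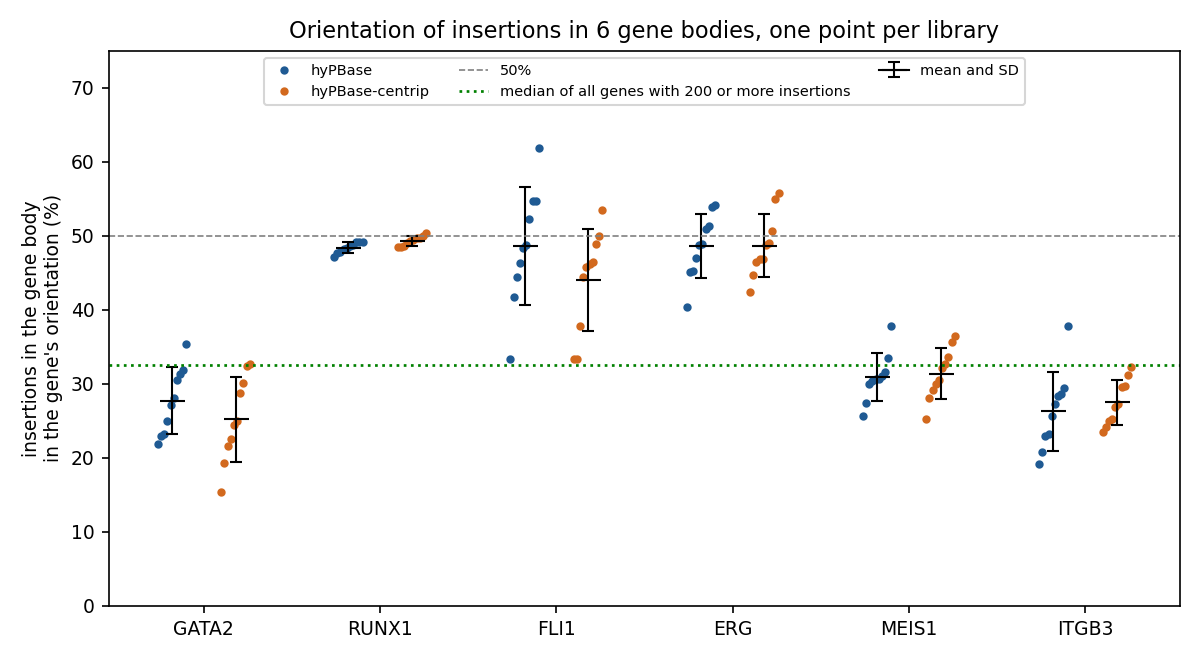
Percent of gene-body insertions in the orientation of the gene (y axis), 1 point per library, black bars for the mean and SD of 10 libraries, dashed line at 50% and dotted line at the all-gene median of 32.5%. GATA2, MEIS1 and ITGB3 stay under 50% in every library, RUNX1 hugs 50% with little spread, and FLI1 and ERG scatter on both sides.

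Within a gene window the direction, scored against the member gene, changed from stretch to stretch, and some stretches lay outside the gene body. The stretches of other genes were not scored in this way, so whether such a mix is particular to the members was not tested. The Wilson intervals of stretches cover counting error only and are not adjusted for the number of stretches. Of 198 stretches, 88 had a 95% Wilson interval below 50%, 45 above it and 65 across it. In RUNX1 these numbers were 47, 33 and 31, and its stretches ranged from 2.41% to 94.3% same-strand. The stretch over the canonical start had 21.8%, the one 22052 bp downstream 61.4% and the one with the most insertions 49.2%, a value that takes in the site near the limit in both orientations. The MEIS1 stretch on its start had 2.99% (interval 1.82 to 4.87%), whereas the one with the most insertions had 56.7%. The main GATA2 stretch had 17.0% (interval 14.97 to 19.4%). Outside the dense stretches the GATA2 body held 69.4% same-strand of 121 insertions, against 23.4% of 1339 inside them. GATA2-AS1, an antisense gene, overlaps the first part of GATA2, and with the overlap left out the share was 19.5%. Counting each site and orientation once per library raised the GATA2 share to 41.5%, and keeping only insertions with at least 2 reads lowered it to 20.5%.

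The helpers were then compared. In the edgeR quasi-likelihood test of window counts 2.23% of 19605 genes were called lower with hyPBase-centrip and 1.16% higher, and 0 of 8 members were called. DESeq2 also called 0 of 8. PF4 came nearest, at 114 ± 6.59 CPM (insertions scaled to equal library totals) under hyPBase against 107 ± 8.38 CPM under hyPBase-centrip (SD over the 10 libraries of each helper), a log2 difference of -0.09 ± 0.03 (SE, unadjusted p = 0.0144 and adjusted p = 0.165 by edgeR), and was the 1 of 8 members with an unadjusted edgeR p under 0.05, as 3196 of the 19605 genes had. For RUNX1 the difference was -0.03 with a 95% interval of -0.07 to 0.01, and for GATA2 -0.02 with one of -0.11 to 0.07. The widest interval was that of FLI1, from -0.19 to 0.11. It was -0.05 to 0.10 for ERG, -0.07 to 0.07 for MEIS1, -0.11 to 0.12 for ITGA2B and -0.03 to 0.11 for ITGB3.

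Restricting the counts to gene bodies changed the picture for GATA2 and ITGB3, in opposite directions. The GATA2 body took 56.0 ± 6.22 CPM of the insertions in gene bodies with hyPBase (43.8 to 65.3 over libraries) and 44.3 ± 3.58 with hyPBase-centrip (37.3 to 50.3), so the groups overlapped. The log2 difference was -0.33 ± 0.07 (SE, adjusted p = 0.0029, edgeR over 12865 gene bodies). The ITGB3 body took 77.1 ± 6.40 with hyPBase (66.0 to 85.7) and 88.6 ± 7.61 with hyPBase-centrip (74.7 to 99.4), also overlapping, and its log2 difference was 0.20 ± 0.06 (SE, adjusted p = 0.046, edgeR). Among all bodies 1.57% were called lower and 0.816% higher. In GATA2 the call held with DESeq2 (-0.33, adjusted p = 0.0157) but not with at least 2 reads (-0.25, adjusted p = 0.104 by edgeR) or with barcodes collapsed (-0.31, adjusted p = 0.569 by edgeR). In ITGB3 it was lost with DESeq2 (0.20, adjusted p = 0.137), and by edgeR with at least 2 reads (0.23, adjusted p = 0.0687), with the log2 of each library total in the fit (0.17, adjusted p = 0.0927) and with barcodes collapsed (0.10, adjusted p = 0.826). The main GATA2 stretch had 24.3 ± 2.63 CPM of the whole library with hyPBase and 19.6 ± 1.64 with hyPBase-centrip, whereas the 50 kb upstream had a log2 ratio of 0.30 ± 0.17 and 0.53 ± 0.11 (SD over the 10 libraries of each helper).

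**Figure D5:**
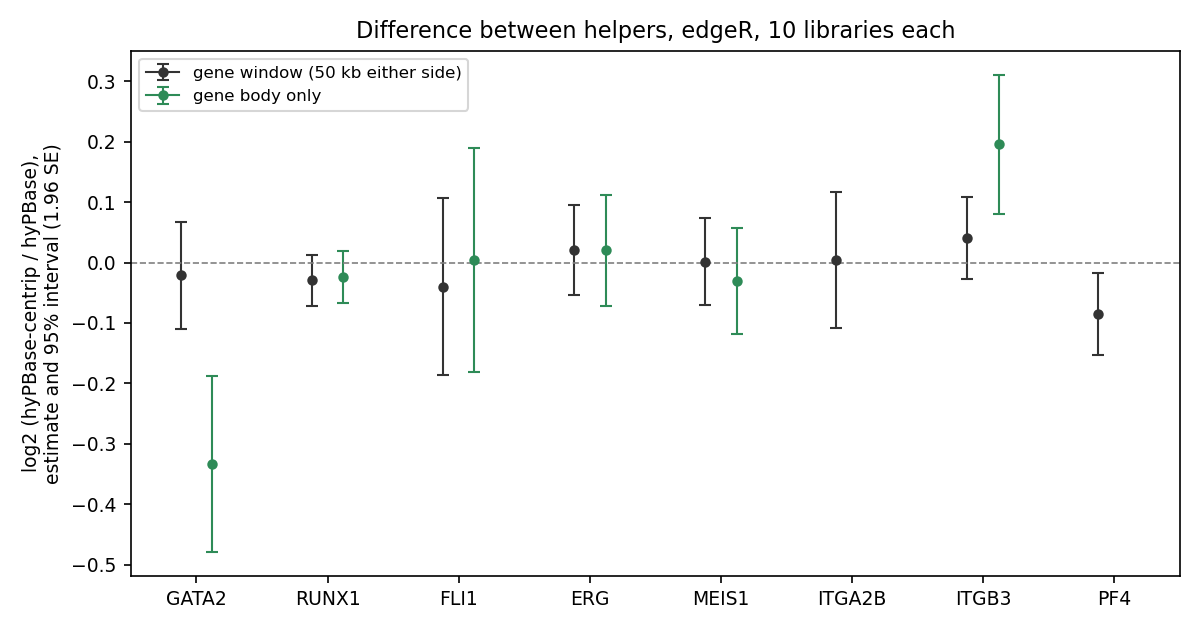
Log2 difference between helpers (hyPBase-centrip over hyPBase, y axis) for each member, with bars for the 95% interval, from the edgeR fit of window counts (black) and of gene bodies (green; ITGA2B and PF4 bodies were too sparse). Only the GATA2 and ITGB3 bodies were called after adjustment, at -0.33 and 0.20. The bars are not adjusted, and that of the PF4 window, from -0.15 to -0.02, also lies clear of 0.

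Orientation did not differ detectably between helpers in the members. By the strand-by-helper term of the edgeR fit 2.03% of genes were called, 253 with a higher and 8 with a lower same-strand share under hyPBase-centrip, and 0 of 6 members. RUNX1 had the smallest unadjusted p, 0.0046 (adjusted p = 0.113), for a log2 odds difference of 0.05 ± 0.02 (SE), and was the 1 of 6 members with an unadjusted p under 0.05, as 1775 of the 12865 genes had. The 95% interval was -0.16 to 0.19 for MEIS1, -0.51 to 0.14 for GATA2 and -0.70 to 0.03 for FLI1, so the data bound the difference less tightly in the sparser genes.

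A list of 28 further stem cell, megakaryocyte and platelet genes gave the members' context. Of these, 12 were above their surroundings in all 20 libraries and 9 below, beside the 38.6% and 36.5% of all genes. Their median log2 ratio was 0.017, against 0.022 for all genes, a difference that was not tested. The 3 highest were TAL1 at 2.62 and LMO2 at 2.04, partners in a blood stem cell complex, and NFE2 at 2.39, a factor of platelet formation. The 3 lowest were the platelet genes GP5 at -1.39, CLEC1B at -1.14 and THBS1 at -1.12. Both kinds of gene lay on both sides, as the platelet genes TUBB1 (1.91) and GP1BA (1.14) were above in all 20 libraries and the factors PBX3 (-0.62) and CBFB (-0.51) below in all 20. Between helpers 1 of the 28 was called, PPBP, whose window overlaps that of PF4 (log2 difference -0.11, adjusted p = 0.033, edgeR), beside the 2.23% of all genes called lower and 1.16% called higher.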

How the data were processed

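K562 insertions were read from 20 deposited files, in which the authors list each insertion with its position, read count, strand and barcode. These read counts come from reads that the submitters' processing notes link to hg38 and to Trimmomatic, BWA and SAMtools, with versions not given in the sources used here. Insertions, not reads, were counted, and 1509672 to 3596762 per library set the precision. Gene records came from GENCODE release 44. Densities were taken per TTAA site of hg38 in the window and in the 500 kb on either side. Helpers were compared with edgeR 4.0.16 (quasi-likelihood, TMM scaling, Benjamini-Hochberg adjustment over all genes, threshold 0.05), in R 4.3.3, after removing genes that fewer than 10 libraries hit 10 times or more. DESeq2 1.42.0 was an alternative. The strand fit used insertions along and against each gene, with library as a block. CPM values are edgeR's, over the counts of the table tested. Python 3.11.15, numpy 2.4.6, scipy 1.17.1 and matplotlib 3.10.9 did the rest. Promoter sequences came from RefSeq, GRCh38.p14. The scripts were tested on simulated data. All 8 members are named throughout, and the members and gene lists were chosen with earlier results of these data known. Libraries are pools of transfections of one line, so p-values measure the spread between these pools, which may be technical. Intervals cover counting error only where they are Wilson intervals. The 2 libraries with conflicting labels were left out. Some marker genes of the lists are not reported here.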

Additional observations from a re-analysis of the deposited data

How the results depend on the processing

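The difference between transcription factors and platelet genes, 1.10, was 0.77 with barcodes collapsed, 0.67 counting distinct sites, 0.92 with 250 kb and 0.32 with 1 Mb of surroundings on each side, 1.38 with the gene body only and 0.029 with 100 kb either side. It stayed at 1.11 with canonical transcripts, an alternative chosen after seeing the data, as were those for the GATA2 and ITGB3 bodies. The 198 stretches became 252 at 2 times the surroundings, 121 at 5 times the surroundings and 111 with 2 kb bins. With distinct sites the share of dense bins fell from 5.56% to 2.78% in PF4 and from 5.51% to 3.15% in ITGA2B. It stayed at 15.7% in GATA2. In FLI1 it fell from 9.92% to 1.13% at 5 times the surroundings. Genes called between helpers numbered 664, of which 65.8% were lower with hyPBase-centrip. They numbered 344 with DESeq2 (76.2% lower), 44 with barcodes collapsed (81.8% lower) and 683 with no normalization beyond library size (51.5% lower). The number was 1006 when the log2 of each library total entered the fit, 307 with gene bodies, and 656 without hyPBase-centrip replicate 3. Genes with a strand difference between helpers numbered 261, then 119 with at least 2 reads and 233 without that replicate. Directions of window differences that reversed, none of them called, were ITGA2B -0.0063 and MEIS1 -0.023 and ERG -0.0014 with that term, MEIS1 -0.013 with at least 2 reads, MEIS1 -0.031 and FLI1 0.0039 in the body, and GATA2 0.079, FLI1 0.0057 and ITGB3 -0.038 with barcodes collapsed. With at least 2 reads FLI1 was also called below 50% same-strand (edgeR adjusted p = 0.0264). Of 72 alternative values of the members' density ratios, 37 moved by less than the spread between libraries and 35 by more. The sign changed only for the members near 0: ITGA2B went from -0.01 to 0.02 with at least 2 reads, 0.14 with barcodes collapsed, 0.14 with distinct sites and 0.16 with 100 kb flanks, and PF4 from -0.08 to 0.02 with barcodes collapsed, 0.02 with distinct sites, 0.48 with 1 Mb of surroundings and 1.07 with 100 kb flanks. The cause of these shifts was not tested.

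The labels do not say whether replicate numbers pair libraries across helpers. Deviations of same-numbered libraries correlated from -0.367 to 0.156, above 0.1 in 5 of 10 pairs. Differently numbered libraries were not compared, so these values cannot show whether the numbers pair them. With the replicate block 603 genes were called and ITGA2B was at -0.0032.

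Sparse genes limit the precision, since the FLI1 window held 43 to 105 insertions per library and the ITGA2B and PF4 bodies 81 and 78 in all.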

Other observations

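Insertion profiles around the start of the gene record were compared (Pearson's r over 20 bins of 5 kb, 20 libraries pooled, among 20011 genes). Most like the factors were CYFIP2 for GATA2 (0.80), RNF169 for RUNX1 (0.85), SPOCK3 for FLI1 (0.85), CIDEB for ERG (0.79) and ZNF622 for MEIS1 (0.81). For the platelet genes they were PAQR5 for ITGA2B (0.80), ARSF for ITGB3 (0.74) and GAS2L3 for PF4 (0.80). The RUNX1 record starts at chr21:36004667, far upstream of the canonical start at 35049302. The ERG record starts at chr21:38661780, upstream of the canonical start at 38498477, and in FLI1 and MEIS1 the shift is smaller. The RUNX1 and ERG matches therefore do not describe the canonical start, around which profiles were not compared. The bins of a profile come from the same libraries, so r is a description only.

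The letters AGATAA or TGATAA, which GATA factors are known to bind, were searched on both strands in 300 bases around the strongest site of each window. They were found once each at ERG, MEIS1 and ITGB3 and at 2 places at PF4, and not at GATA2, RUNX1, FLI1 or ITGA2B. Of windows of that length on all 16051 TTAA sites of the members, 38.7% held them. An absence applies to those 300 bases only. In GATA2 they are a part of the main stretch of 2500 bp, and letters beyond the 300 bases were not counted.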
